A study of Saccharomyces cerevisiae with 17 samples.

Results

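The change in poly(A)-selected RNA between 10 and 30 min of salt stress was followed in budding yeast from which the exonuclease Xrn1 had been depleted. The comparison took the 2 libraries labelled Xrn1-AID, 30 min NaCl, against the 3 labelled Xrn1-AID, 10 min NaCl, 5 of the 17 libraries of the series, and covered every gene that passed a filter on low counts (6195 of 7126 features). All libraries came from 1 strain, BY25598 MATa, whose XRN1 gene carries an auxin-inducible degron (XRN1-AID) and in which the plant receptor OsTIR1-9Myc, driven by the ADH1 promoter, recognises the degron. Every group also carries the alleles ade2-1 and his3-11,15, together with leu2-3,112, trp1-1 and can1-100, and the markers URA3 and HIS that came with the receptor and the degron. Log-phase cells in YPD at 30 °C had received 500 µM auxin for 30 min (Xrn1-AID) or none (Xrn1-WT), and then 0.4 M NaCl for 10 or 30 min, or no salt. The series' design text states that less than 10% of the Xrn1 protein was left after the auxin treatment. The labels do not say whether auxin stayed in the medium during salt. The 3 libraries at 30 min and 3 at 10 min of Xrn1-WT, which carry the same degron and receptor but saw no auxin, are set beside the Xrn1-AID values. The 30 min libraries were also taken 20 min later after auxin than the 10 min libraries, and in Xrn1-AID alone the effects of time in salt and of time since auxin cannot be told apart.

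Xrn1 is the main cytoplasmic 5' to 3' exonuclease of yeast and degrades mRNAs once their caps have been removed. High salt draws water out of yeast cells and activates the kinase Hog1, which together with the transcription factors Msn2 and Msn4 switches on glycerol synthesis, ion export and protective proteins, mostly in a transient wave. While that wave passes, genes for making ribosomes are turned down, and they recover as growth resumes.

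Libraries are named by arm, minutes in salt and replicate, as in AID 30 replicate 1. Depth was 16.7 and 21.2 M counts for the 30 min libraries and 19.2, 19.8 and 19.5 M for the 10 min libraries. A count of 0 in 1 of them allowed 3 counts, or at most 0.18 CPM before scaling (CPM sets a gene's count relative to the total of its library), and such limits cover counting error only. The 30 min libraries differed from each other by more than 1.5-fold in 1154 genes (pseudocount of 0.5 CPM), against 713, 496 and 83 genes between pairs of the 10 min libraries. Small nucleolar and spliceosomal RNA took 0.0374% and 0.0192% of the counts at 30 min, against 0.00881% to 0.0102% at 10 min, and its part in the results was not tested. Trimmed mean of M-values (TMM) factors were 1.19 and 1.37 at 30 min, against 0.80 to 0.88 at 10 min, so scaling moved every fold change: the median log2 fold change over all genes was 0.01 with TMM and 0.62 with library size alone. Fold changes below are therefore best read against that median. Between these scalings the medians of 14 of 32 gene lists changed sign. Relative to the median over all genes none did, but the scaling shifts all genes nearly alike, so this is no test of it. Levels are in CPM scaled by TMM. Of the markers of haploid a cells 3 of 6 fell, against 22.1% of all tested genes. Of 4 alpha cell markers 2 were too low to test, and neither of the others rose or fell by the test given below. Among these was STE3, the a-factor receptor of alpha cells. It stood at 0.654 and 0.311 CPM at 30 min, against 0.519, 0.345 and 0.491 CPM at 10 min. The sources used here give neither the origin of the replicates (cultures or repeated libraries) nor the strand setting and the handling of multiply aligned reads. P-values may thus measure technical spread, and values of near-identical paralogs and of genes overlapping on opposite strands are uncertain.

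XRN1 itself (YGL173C, chromosome VII, 175527 to 180113, - strand) had 34.1 and 70.0 CPM at 30 min, against 48.9, 51.7 and 52.0 CPM at 10 min. One 30 min library lay below and the other above the 10 min libraries, with a log2 fold change (30 over 10 min, ± standard error) of 0.04 ± 0.39, adjusted p = 0.949. Since it is the protein that auxin removes, this mRNA level cannot serve as a check of the depletion.

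Between 10 and 30 min in Xrn1-AID, 2592 of 6195 genes (41.8%) passed edgeR's quasi-likelihood test at a Benjamini-Hochberg adjusted p under 0.05. Of these, 1225 rose (19.8% of all tested genes) and 1367 fell (22.1%). Among the called genes, 501 rose and 825 fell by more than 2-fold, and 98 rose and 209 fell by more than 4-fold. Scaled by library size without TMM, 2653 genes rose and 610 fell, and 1203 were called when the change was tested against 1.5-fold. In 2575 of the 2592 called genes the 30 min and 10 min libraries did not overlap, while over all tested genes 31.4% lay entirely higher and 31.8% entirely lower at 30 min. A lack of overlap, where given below for called genes, thus describes their values and is no further support for the call. With 2 libraries against 3, an exact permutation test of a single value cannot give a p below 0.1, so the tests rest on a spread shared by all 17 libraries.

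**Figure D1:**
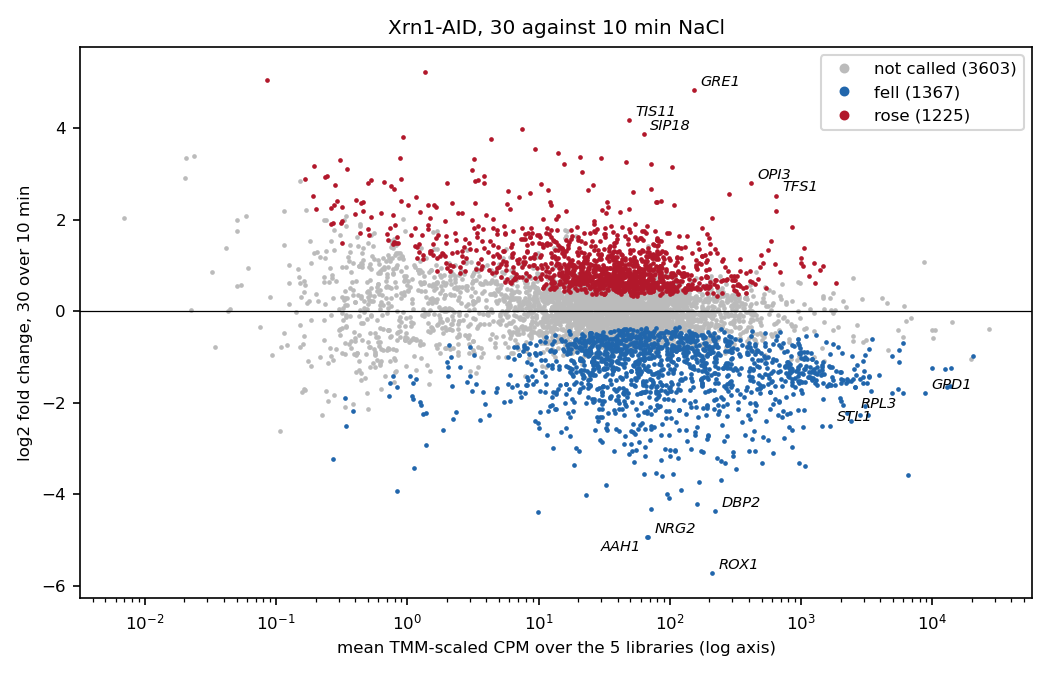
Log2 fold change, 30 over 10 min, against the mean TMM-scaled CPM over the 5 Xrn1-AID libraries (log axis), with 1 point per tested gene. Red points rose (1225), blue points fell (1367) and grey points were not called. The lowest labelled gene is ROX1 at -5.73 and the highest labelled gene is GRE1 at 4.83.

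Of the 12 genes named as falling furthest, 3 encode transcriptional repressors. ROX1 (YPR065W, chromosome XVI, 679693 to 680799, + strand), a repressor of genes used when oxygen is low, stood at 4.08 and 8.85 CPM at 30 min, against 348, 344 and 346 CPM at 10 min (-5.73 ± 0.58, adjusted p = 1.29e-06). NRG2, a repressor of glucose-repressed genes, had 3.83 and 3.53 CPM at 30 min, against 109, 122 and 105 CPM at 10 min (-4.93 ± 0.23, adjusted p = 2.47e-09), and its paralog NRG1 had 8.21 and 10.9 CPM at 30 min, against 134, 161 and 165 CPM at 10 min (-4.00 ± 0.22, adjusted p = 7.28e-09). For all 3 repressors both 30 min libraries lay far below every 10 min library. ROX1 had stood at 54.2, 38.8 and 42.1 CPM and NRG2 at 13.2, 15.2 and 10.9 CPM before salt, levels above those at 30 min. MGA1, which encodes a protein related to heat shock factor, had 3.88 and 7.60 CPM at 30 min, against 102, 122 and 124 CPM at 10 min (-4.32 ± 0.44, adjusted p = 1.27e-06), and CIN5, a basic leucine zipper factor of salt tolerance outside these 12, had 25.5 and 35.0 CPM at 30 min, against 372, 400.3 and 396 CPM at 10 min (-3.69 ± 0.41, adjusted p = 2.96e-06). Neither gene's groups overlapped.

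The remaining genes of the 12 that fell furthest had varied roles. They were AAH1 for adenine deaminase (-4.92), DBP2 for an RNA helicase of ribosome assembly and mRNA export (-4.36), FRE4 for a ferric reductase (-4.22), PRR2 for a protein kinase (-4.08), RSB1 for a sphingoid base exporter (-4.01), HSP30 for a plasma membrane stress protein (-3.80) and KAP123 for an importer of ribosomal proteins into the nucleus (-3.73). YLR108C, with no role given here, changed by -3.89. AAH1 had 4.68 and 2.63 CPM at 30 min, against 116, 101 and 112 CPM at 10 min, and none of the 12 genes had overlapping groups, which was part of the rule that chose them.

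The classical Hog1-dependent effectors moved in both directions. Of these genes 6 rose and 9 fell of 28 tested, against backgrounds of 19.8% and 22.1%, with a median of -0.42 that became 0.21 with library size alone, where 12 rose and 8 fell. With the compared groups alone 10 rose. STL1, the glycerol importer (YDR536W, chromosome IV, 1508005 to 1509714, + strand), stood at 0.586, 1.37 and 0.662 CPM at 0 min, 2559, 2360.2 and 2533 CPM at 10 min and 353 and 527 CPM at 30 min, a change from 10 to 30 min of -2.50 ± 0.70, adjusted p = 0.00885. It was far above its level before salt at both times, and below all 10 min libraries at 30 min, but missed the threshold without AID 30 replicate 1 (adjusted p = 0.0818). GPD1, the glycerol 3-phosphate dehydrogenase that limits glycerol synthesis, stood at 143, 164 and 138 CPM at 0 min, 12004, 11069 and 13738 CPM at 10 min and 3706 and 3385 CPM at 30 min (-1.79 ± 0.33, adjusted p = 0.00043). Its 30 min level thus lay between those at 0 and 10 min. GPP1, a glycerol phosphatase of the same pathway, had 3587 and 3016 CPM at 30 min, against 7793, 6396 and 7288 CPM at 10 min (-1.12 ± 0.23, adjusted p = 0.00111). Its paralog GPP2 had 4323 and 4799 CPM at 30 min, against 6777, 5375 and 6113 CPM at 10 min, lower in both 30 min libraries, and did not pass (-0.42 ± 0.38, adjusted p = 0.399; 0.20 with library size alone). ENA1, the sodium export pump, had 210.2 and 255 CPM at 30 min, against 1105, 941 and 1107 CPM at 10 min (-2.18 ± 0.26, adjusted p = 5.73e-06), and its tandem copies make its value uncertain.

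**Figure D2:**
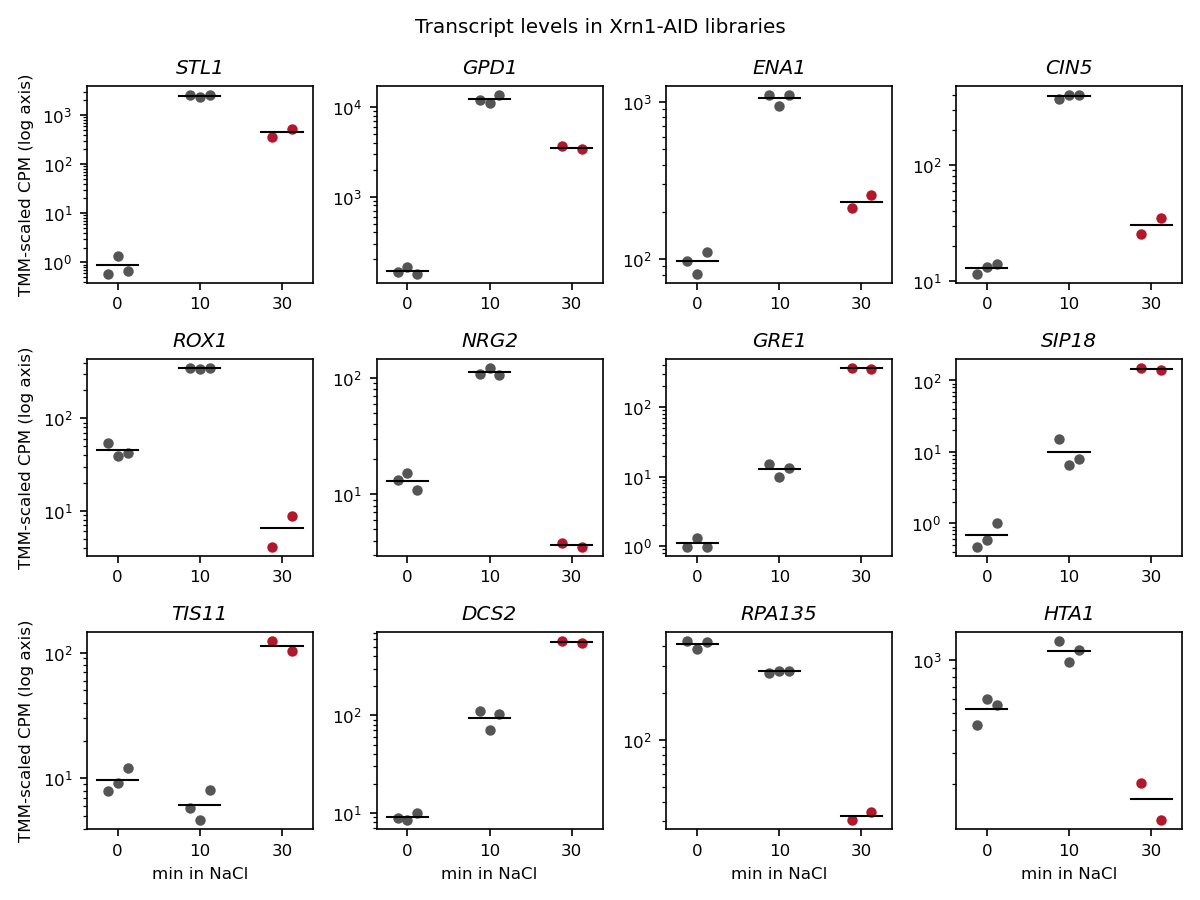
TMM-scaled CPM (log axes, each with its own range) of 12 genes in every Xrn1-AID library at 0, 10 and 30 min in NaCl; points are libraries, bars are means, and 30 min is in red. STL1, GPD1, ENA1 and CIN5 peaked at 10 min and stayed above their 0 min libraries, ROX1 and NRG2 ended below theirs, and GRE1, SIP18, TIS11 and DCS2 were highest at 30 min.

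A late set of genes rose. GRE1, a hydrophilin, one of the very hydrophilic proteins made under water loss (YPL223C, chromosome XVI, 128632 to 129138, - strand), stood at 0.977, 1.32 and 0.968 CPM at 0 min, 15.4, 9.78 and 13.1 CPM at 10 min and 365 and 361 CPM at 30 min (4.83 ± 0.42, adjusted p = 2.8e-07 for 30 over 10 min). Its paralog SIP18 stood at 0.469, 0.581 and 1.02 CPM at 0 min, 15.0, 6.503 and 7.98 CPM at 10 min and 149 and 139.7 CPM at 30 min (3.88 ± 0.45, adjusted p = 5.45e-06). Both genes were higher at every later time, with no overlap between times. TIS11, which binds AU-rich mRNAs and marks them for decay when iron is scarce, stood at 7.93, 9.24 and 12.1 CPM at 0 min, 5.84, 4.66 and 8.10 CPM at 10 min and 123 and 102 CPM at 30 min (4.18 ± 0.29, adjusted p = 4.35e-08). The 10 min libraries of TIS11 overlapped those before salt, and both 30 min libraries were far above them.

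The genes that rose furthest included both members of 2 divergent gene pairs, a grouping noticed after the values were seen. FMP40, for a mitochondrial protein AMPylase, is read away from GRE1 across 1023 bases with no gene between their coding regions, and had 216 and 227 CPM at 30 min, against 30.8, 20.7 and 23.6 CPM at 10 min (3.15 ± 0.25, adjusted p = 1.17e-07). PAI3, for an inhibitor of the vacuolar proteinase A, faces away from SIP18 across 650 bases and had 96.4 and 105 CPM at 30 min, against 13.7, 7.31 and 10.6 CPM at 10 min (3.26 ± 0.34, adjusted p = 1.63e-06). Both members of each pair rose with no overlap.

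The others of the 12 were GPG1, for a G protein gamma subunit mimic (3.46), the siderophore genes FIT2 (3.37) and SIT1 (3.21), OPI3, for the enzyme that makes phosphatidylcholine by methylation (2.80), UIP4, for a nuclear envelope protein (3.04), and YTP1 (3.34) and UGX2 (3.22), with no role given here. OPI3 had 1044 and 665 CPM at 30 min, against 132, 118 and 119 CPM at 10 min (2.80 ± 0.37, adjusted p = 1.86e-05), and both 30 min libraries were several times above the 10 min ones.

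More genes of the Msn2/Msn4 general stress program rose than fell. Of 46, 21 rose and 6 fell, against 19.8% and 22.1% over all genes. The median was 0.69, against 0.01 over all genes, and 28 rose and 2 fell with library size alone. In Xrn1-WT 31 rose and 5 fell, with a median of 1.11, where 30.6% of all genes rose and 25.7% fell. Their summed share of the counts was 5.76 and 6.95% at 30 min, against 3.57, 3.20 and 3.54% at 10 min. TFS1, for an inhibitor of carboxypeptidase Y, had 1438 and 1118 CPM at 30 min, against 273, 174 and 218 CPM at 10 min (2.53 ± 0.36, adjusted p = 4.05e-05), DCS2, for a stress regulator of the scavenger decapping enzyme, had 571 and 550.4 CPM at 30 min, against 111, 71.0 and 102 CPM at 10 min (2.57 ± 0.32, adjusted p = 1.15e-05), and MOH1 rose from a low level (6.90 and 6.81 CPM at 30 min, against 0.908, 0.633 and 1.29 CPM at 10 min). MPC3, a mitochondrial pyruvate carrier subunit, went the other way, with 88.3 and 70.8 CPM at 30 min, against 932, 682 and 762 CPM at 10 min (-3.32 ± 0.46, adjusted p = 3.25e-05).

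Several well-known genes of that program were not called. HSP12, a small membrane-protecting heat shock protein, had 12703 and 12386 CPM at 30 min, against 6846, 5055 and 6068 CPM at 10 min (1.07 ± 0.65, adjusted p = 0.207). CTT1, the cytosolic catalase, had 2756 and 3419 CPM at 30 min, against 5756, 5091 and 5933 CPM at 10 min (-0.86 ± 0.46, adjusted p = 0.152), and HSP26, a small chaperone, had 315 and 344 CPM at 30 min, against 555, 473 and 563 CPM at 10 min (-0.69 ± 0.39, adjusted p = 0.167). HSP12 was higher and CTT1 and HSP26 lower at 30 min in every library, and all 3 passed when only the compared groups were fitted (adjusted p = 0.00163, 0.00611 and 0.00796). TKL2, a transketolase isoform, had 1059 and 1353 CPM at 30 min, against 878, 667 and 779 CPM at 10 min (0.64 ± 0.43, adjusted p = 0.251), higher in both 30 min libraries, and passed in the same fit (adjusted p = 0.0131) and with library size alone (0.0302).

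Trehalose and glycogen genes were mixed: 8 rose and 5 fell of 19 tested, against 19.8% and 22.1% over all genes, with a median of 0.51. The counts were 11 and 4 with library size alone, and 5 rose without AID 30 replicate 2. GPH1, glycogen phosphorylase, rose (211 and 185 CPM at 30 min, against 66.6, 52.2 and 71.0 CPM at 10 min; 1.64 ± 0.30, adjusted p = 0.000447). GSY1, a glycogen synthase isoform (144 and 179 CPM at 30 min, against 601, 447 and 544 CPM at 10 min; -1.72 ± 0.23, adjusted p = 2.56e-05), GLC3, the branching enzyme (79.7 and 79.2 CPM at 30 min, against 230.1, 209.6 and 285 CPM at 10 min; -1.60 ± 0.27, adjusted p = 0.000162), and PIG2, a putative targeting subunit of the glycogen phosphatase (6.29 and 7.64 CPM at 30 min, against 49.6, 61.6 and 62.3 CPM at 10 min; -3.05 ± 0.33, adjusted p = 2.51e-06), fell. The groups of these 4 genes did not overlap, GPH1 being higher and the other 3 lower at 30 min.

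Of 38 genes for the HOG pathway and stress transcription factors, 4 rose and 13 fell, against 19.8% and 22.1% over all genes. Their median was -0.11 (0.50 with library size alone, where 13 rose and 10 fell). Besides the repressors above, MSN2 itself had 68.3 and 101 CPM at 30 min, against 289.9, 331 and 330.01 CPM at 10 min (-1.91 ± 0.33, adjusted p = 0.000265), while its paralog MSN4 had 21.4 and 31.2 CPM at 30 min, against 19.6, 24.7 and 22.3 CPM at 10 min (0.24 ± 0.37, adjusted p = 0.624). HOG1 had 322 and 311 CPM at 30 min, against 355, 316 and 352 CPM at 10 min and did not pass (-0.11 ± 0.13, adjusted p = 0.531). MSN2, MSN4 and HOG1 were added by name after their values were seen.

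Most genes of the translation machinery fell. Of 138 cytosolic ribosomal protein genes 121 fell and none rose, with a median of -1.34. In 135 of the 138 both 30 min libraries lay below all 10 min libraries, against 31.8% of all tested genes. The lists of ribosome biogenesis genes (123 of 142 fell, none rose, median -1.498), translation factors (34 of 39, none, -1.17) and cytosolic aminoacyl-tRNA synthetases (17 of 18, none, -1.46) moved alike. Over all genes 22.1% fell. With library size alone the 4 medians stayed below 0, at -0.75, -0.89, -0.56 and -0.86, and 106 of the ribosomal protein genes, 81 of the ribosome biogenesis genes, 18 of the translation factors and 14 of the synthetases fell, while 1 ribosomal protein gene and 3 biogenesis genes rose. When AID 30 replicate 2 was left out, which leaves 1 library at 30 min, far fewer of the ribosomal protein genes were called as lower. Over all alternatives the median of that list lay between -1.54 and -0.75.

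Ribosomal protein genes together took 12.5 and 10.7% of the counts at 30 min, against 20.6, 20.1 and 20.3% at 10 min, or 11.6 ± 1.30% against 20.3 ± 0.244% (SD, n = 2 and 3; exact 2-sided permutation p = 0.1, the smallest possible). The 2 groups of libraries were well apart. RPL3 had 2688 and 2149 CPM at 30 min, against 9086, 7578 and 8480.2 CPM at 10 min (-1.79 ± 0.45, adjusted p = 0.00475; adjusted p = 0.0511 without AID 30 replicate 2). RPL30, whose protein regulates the splicing of its own RNA, had 1036 and 439 CPM at 30 min, against 2067, 3123 and 3466 CPM at 10 min (-1.97 ± 0.54, adjusted p = 0.00823; adjusted p = 0.0991 without that library), and RPL25 had 876 and 615 CPM at 30 min, against 2477, 2767 and 3075 CPM at 10 min (-1.89 ± 0.32, adjusted p = 0.000185). In RPL30 the 30 min libraries were more than 2-fold apart from each other. RPL9A (-2.16) and RPS17B (-2.06) fell too, with near-identical paralogs that make their own share uncertain.

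**Figure D3:**
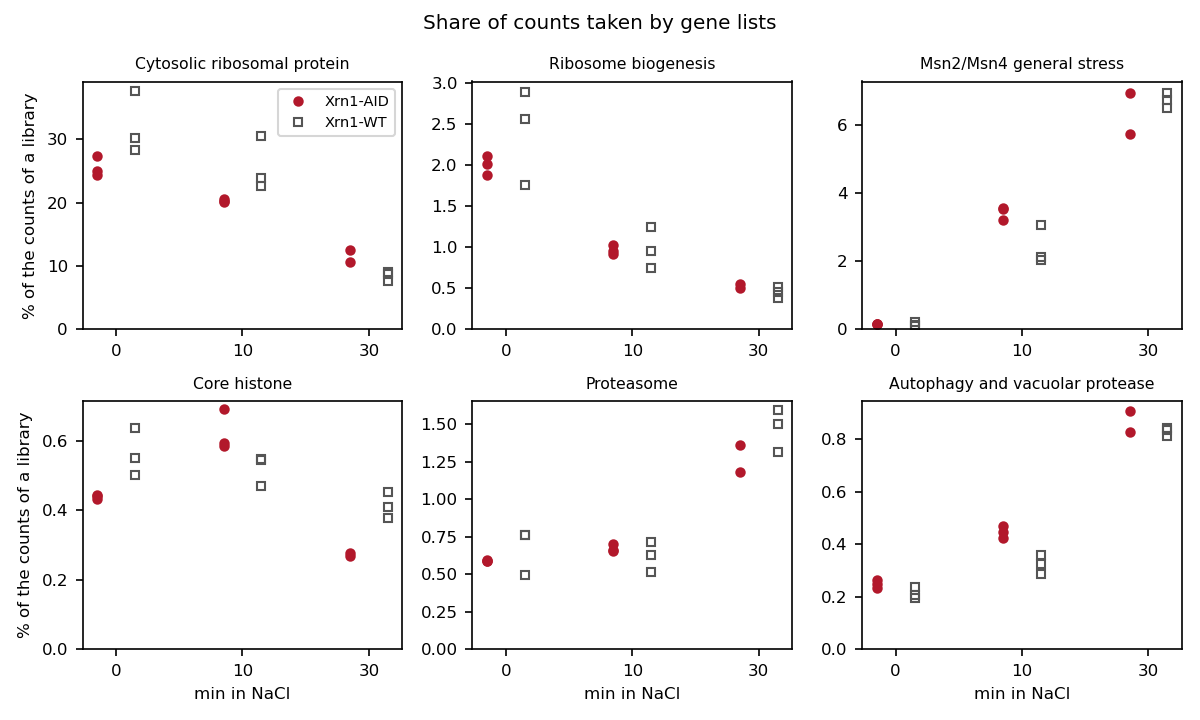
Share of the counts of each library (%) taken by the summed genes of 6 lists at 0, 10 and 30 min in NaCl, with Xrn1-AID (filled circles) left of Xrn1-WT (open squares). Ribosomal protein genes took 12.5 and 10.7% in Xrn1-AID at 30 min, against 20.6, 20.1 and 20.3% at 10 min, while the general stress, proteasome and autophagy lists were highest at 30 min in both arms.

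Ribosome biogenesis genes encode the factors that process ribosomal RNA and assemble the subunits. DBP2 had 18.0 and 16.7 CPM at 30 min, against 414, 334 and 323 CPM at 10 min (-4.36 ± 0.29, adjusted p = 2.9e-08), ENP2, a factor of small subunit assembly, had 9.16 and 7.85 CPM at 30 min, against 99.4, 105 and 96.2 CPM at 10 min (-3.56 ± 0.22, adjusted p = 1.88e-08), and SYO1, which escorts ribosomal proteins into the nucleus, had 2.62 and 3.01 CPM at 30 min, against 19.8, 33.1 and 33.9 CPM at 10 min (-3.35 ± 0.27, adjusted p = 1.44e-07). All 3 were several times lower in each 30 min library. REA1, the giant ATPase that strips assembly factors from the large subunit, had 9.46 and 18.6 CPM at 30 min, against 117, 142 and 142 CPM at 10 min (-3.24 ± 0.43, adjusted p = 2.02e-05), and NOP1, the methylase fibrillarin, had 145 and 111 CPM at 30 min, against 321, 281 and 297 CPM at 10 min (-1.23 ± 0.19, adjusted p = 6.73e-05). Their 30 min libraries were again below every 10 min library.

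Translation factors and synthetases gave like values. YEF3, elongation factor 3, had 919 and 796 CPM at 30 min, against 4146, 4073 and 4091 CPM at 10 min (-2.26 ± 0.24, adjusted p = 2.52e-06), and ANB1, the form of eIF5A made when oxygen is low, had 0.906 and 0.588 CPM at 30 min, against 4.41, 2.65 and 3.19 CPM at 10 min (-2.20 ± 0.44, adjusted p = 0.000902). TIF1 (-2.23) and TIF2 (-2.24), near-identical copies for the helicase eIF4A, fell as well. Among the synthetases KRS1, which charges lysine tRNA, had 305 and 305 CPM at 30 min, against 1273, 1463 and 1368 CPM at 10 min (-2.17 ± 0.20, adjusted p = 6.77e-07). MES1 for methionine (-2.07), THS1 for threonine (-1.79) and SES1 for serine (-1.69) fell too, and none of these 8 genes had overlapping groups.

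Of 36 tested genes for RNA polymerases I and III, which make ribosomal and transfer RNA, 2 rose and 12 fell, against 19.8% and 22.1% over all genes. Their median was -0.35 (0.27 with library size alone, where 8 rose and 8 fell). The large subunits of polymerase I led, with RPA135 at 30.4 and 34.5 CPM at 30 min, against 271, 279 and 278 CPM at 10 min (-3.09 ± 0.25, adjusted p = 1.58e-07) and RPA190 at 21.4 and 16.3 CPM at 30 min, against 122, 175 and 167 CPM at 10 min (-3.04 ± 0.30, adjusted p = 1e-06). RPA49, a further polymerase I subunit, changed by -2.18 ± 0.26 and RPC34, of polymerase III, by -2.01 ± 0.17. None of these 4 genes had overlapping groups.

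The promoters of such genes carry short elements known as PAC and RRPE, and many stress genes carry the STRE bound by Msn2 and Msn4. Windows of 300 bases, from 250 before the start codon to its first 50 coding bases, were read from RefSeq's genome on sacCer3 for 5 genes whose values are given here: 3 that fell and hold PAC and RRPE matches, and 2 that rose and hold STRE matches. They lie at chrXIV:413389-413688, + strand (DBP2), chrVII:781517-781816, + strand (ENP2), chrXVI:581147-581446, - strand (RPA135), chrXII:513772-514071, - strand (TFS1) and chrXV:657014-657313, + strand (DCS2). Capitals mark GATGAG (PAC), AAAATTT (core of RRPE) and AGGGG (STRE) on either strand, where neighbouring matches may overlap.
DBP2: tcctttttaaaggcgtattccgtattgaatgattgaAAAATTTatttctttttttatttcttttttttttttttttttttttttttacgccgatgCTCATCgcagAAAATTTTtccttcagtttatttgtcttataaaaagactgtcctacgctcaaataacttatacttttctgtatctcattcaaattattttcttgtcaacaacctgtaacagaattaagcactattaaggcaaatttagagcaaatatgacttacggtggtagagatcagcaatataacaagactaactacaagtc
ENP2: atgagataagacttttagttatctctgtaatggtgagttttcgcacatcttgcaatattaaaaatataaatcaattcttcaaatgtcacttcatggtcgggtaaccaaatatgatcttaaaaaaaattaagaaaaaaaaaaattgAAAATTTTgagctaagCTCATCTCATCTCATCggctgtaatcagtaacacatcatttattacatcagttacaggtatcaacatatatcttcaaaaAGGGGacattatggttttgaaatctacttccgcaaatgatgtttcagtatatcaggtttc
RPA135: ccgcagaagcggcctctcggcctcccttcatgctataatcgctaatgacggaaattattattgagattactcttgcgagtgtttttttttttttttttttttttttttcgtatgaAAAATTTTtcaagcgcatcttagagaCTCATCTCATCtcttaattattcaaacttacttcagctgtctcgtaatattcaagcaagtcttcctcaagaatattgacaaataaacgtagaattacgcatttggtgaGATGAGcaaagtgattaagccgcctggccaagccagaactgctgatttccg
TFS1: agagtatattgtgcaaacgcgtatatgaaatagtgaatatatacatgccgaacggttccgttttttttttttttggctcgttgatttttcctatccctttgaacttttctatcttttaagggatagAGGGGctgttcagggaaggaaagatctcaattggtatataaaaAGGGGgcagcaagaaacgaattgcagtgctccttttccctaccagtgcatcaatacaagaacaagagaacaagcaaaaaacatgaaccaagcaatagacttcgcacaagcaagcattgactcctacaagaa
DCS2: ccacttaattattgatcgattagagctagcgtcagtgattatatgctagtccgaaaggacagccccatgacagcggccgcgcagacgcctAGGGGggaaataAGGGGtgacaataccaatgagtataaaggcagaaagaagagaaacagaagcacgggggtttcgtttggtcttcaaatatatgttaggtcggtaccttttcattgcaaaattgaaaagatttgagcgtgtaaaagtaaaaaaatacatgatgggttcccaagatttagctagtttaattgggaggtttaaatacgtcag
ENP2 holds 3 PAC matches in a row, read on the minus strand and beginning 89, 84 and 79 bases before the start codon and each sharing 1 base with the next. RRPE cores begin at 105 and 104, read on opposite strands and overlapping, and an STRE at 10. RPA135 has overlapping RRPE cores at 135 and 134, PAC matches at 109 and 104, and a further PAC match at 1 that runs into the coding sequence. DBP2 has 1 PAC match at 155 and RRPE cores at 214, 145 and 144. The STRE matches begin 124 and 81 bases before the start in TFS1, and 160 and 148 bases before it in DCS2.

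Over the genome, PAC was present in 31.9% (Wilson interval 29.5 to 34.4%) of the windows of genes that fell, 14.2% (Wilson interval 12.3 to 16.3%) of those that rose and 20.4% of all 6001 windows. The RRPE core was in 38.5% (Wilson interval 35.9 to 41.1%) of the windows of genes that fell, 16.7% (Wilson interval 14.7 to 19.0%) of those that rose and 23.2% of all. STRE ran the other way, in 30.3% (Wilson interval 27.7 to 33.0%) of the windows of genes that rose, 15.8% (Wilson interval 14.0 to 17.8%) of those that fell and 21.6% of all. Of the 142 ribosome biogenesis genes, 129 had a PAC and 136 an RRPE core, and of the 46 general stress genes 30 had an STRE. Intervals are 95% and cover counting error only, and a match is a description of the letters, not of binding.

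Genes of amino acid synthesis fell as well. Of 62 biosynthesis genes outside the sulfur pathways, 3 rose and 46 fell, against 19.8% and 22.1% over all genes. Their median was -0.93, while 8 rose and 27 fell with library size alone. ARG1, argininosuccinate synthetase, had 11.8 and 9.71 CPM at 30 min, against 138, 135 and 98.4 CPM at 10 min (-3.53 ± 0.28, adjusted p = 1.35e-07). ILV3, of branched-chain amino acid synthesis, changed by -2.54 ± 0.25 and ARO4, at the entry to aromatic amino acids, by -2.52 ± 0.27. None of these 3 had overlapping groups. The Gcn4 site TGACTC was in 33 of the 62 windows of that list and in 7.98% of all windows.

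In the sulfur pathways 5 rose and 10 fell of 29 tested, with a median of -0.21 (0.41 with library size alone, where 11 rose and 6 fell), and 2 rose without AID 30 replicate 2. SAM1, S-adenosylmethionine synthetase, had 35.0 and 42.0 CPM at 30 min, against 426, 313 and 329 CPM at 10 min (-3.21 ± 0.23, adjusted p = 5.15e-08), and MET17, which fixes sulfide into homocysteine and overlaps an annotated reading frame on the opposite strand, had 22.8 and 18.9 CPM at 30 min, against 168, 164 and 176 CPM at 10 min (-3.02 ± 0.23, adjusted p = 7.32e-08). MET6, methionine synthase (-1.94), and the S-methylmethionine importer MMP1 (-2.13) fell as well. All 4 were lower in both 30 min libraries. The shares over all genes were 19.8% that rose and 22.1% that fell.

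Of the purine genes 1 rose and 9 fell of 21 tested, against 19.8% and 22.1% over all genes. Their median was -0.24 (0.37 with library size alone, where 7 rose and 5 fell). Those that fell included the guanine nucleotide branch, with GUA1 at 44.8 and 38.5 CPM at 30 min, against 392, 427 and 419 CPM at 10 min (-3.31 ± 0.17, adjusted p = 7.28e-09), and with IMD3 (-2.14) and IMD2 (-2.04), both for IMP dehydrogenase. Both groups of GUA1 were tight and far apart. The strain's ade2-1 allele blocks adenine synthesis in all groups.

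Ergosterol synthesis makes the main sterol of yeast membranes, and 18 of its 28 genes fell while 1 rose (median -0.74), against 22.1% and 19.8% over all genes. The number that fell was 7 with library size alone, where 3 rose, and 11 without AID 30 replicate 2. ERG25 had 53.3 and 52.1 CPM at 30 min, against 433, 482 and 501 CPM at 10 min (-3.16 ± 0.28, adjusted p = 2.89e-07), ERG11, the target of azole drugs, had 90.3 and 94.4 CPM at 30 min, against 483, 728 and 707 CPM at 10 min (-2.79 ± 0.40, adjusted p = 3.84e-05), and ERG3 had 87.4 and 85.1 CPM at 30 min, against 563, 519 and 616 CPM at 10 min (-2.71 ± 0.20, adjusted p = 6.36e-08). ERG5 changed by -2.80 ± 0.30, and all 4 genes had their 30 min libraries below the 10 min ones. For the cell wall integrity list 1 rose and 11 fell of 22 tested, with a median of -0.58 (0.02 with library size alone, where 2 rose and 4 fell), and 7 fell without AID 30 replicate 2. YPS3, a surface aspartyl protease, had 7.60 and 9.30 CPM at 30 min, against 93.3, 85.1 and 69.1 CPM at 10 min (-3.28 ± 0.29, adjusted p = 3.68e-07), and CHS1, the repair chitin synthase, had 82.7 and 112 CPM at 30 min, against 483, 557 and 523 CPM at 10 min (-2.42 ± 0.34, adjusted p = 3.56e-05). CRH1, which links chitin to glucan (-1.76), and the protease YPS1 (-1.62; adjusted p = 0.0504 with library size alone) fell too.

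Phosphate regulon genes fell in 13 of 22 cases and rose in 1, against 22.1% and 19.8% over all genes. Their median was -0.89, and 4 rose and 9 fell with library size alone. The secreted acid phosphatase genes were among them: PHO5 had 50.4 and 46.7 CPM at 30 min, against 231, 262 and 229 CPM at 10 min (-2.31 ± 0.23, adjusted p = 1.24e-06), and the near-identical PHO11 (-2.70 ± 0.16) and PHO12 (-2.70 ± 0.20) fell together. PHO89, a phosphate importer that uses the sodium gradient, had 8.86 and 8.61 CPM at 30 min, against 46.7, 31.0 and 51.8 CPM at 10 min (-2.30 ± 0.37, adjusted p = 0.00012). Its groups did not overlap.

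Genes of central carbon metabolism split by pathway. The shares over all genes were 19.8% that rose and 22.1% that fell. Of glycolysis and fermentation genes 2 rose and 8 fell of 21 tested, with a median of -0.41 (0.17 with library size alone, where 6 rose and 5 fell), and 4 fell without AID 30 replicate 2. HXK2, the main hexokinase on glucose, had 429.7 and 331 CPM at 30 min, against 2164, 2063 and 2239 CPM at 10 min (-2.50 ± 0.25, adjusted p = 1.17e-06), CDC19, the main pyruvate kinase, had 5983 and 4927 CPM at 30 min, against 15023, 11589 and 12289 CPM at 10 min (-1.25 ± 0.28, adjusted p = 0.00182), and PYK2, the pyruvate kinase isoform of slow glycolysis, had 77.5 and 77.6 CPM at 30 min, against 34.5, 24.6 and 32.7 CPM at 10 min (1.34 ± 0.24, adjusted p = 0.000334). The 2 pyruvate kinase genes moved in opposite directions without overlap. ADH1, alcohol dehydrogenase, had 8826 and 4732 CPM at 30 min, against 16599, 16678 and 15488 CPM at 10 min (-1.26 ± 0.42, adjusted p = 0.0246), and missed the threshold without AID 30 replicate 2 (adjusted p = 0.206) and without AID 10 replicate 2 (0.0529). The same promoter drives the receptor in the strain.

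Hexose transporter and sensor genes gave 1 that rose and 4 that fell of 14 tested (2 further ones were too low), against 19.8% and 22.1% over all genes. The list median was -0.31 (0.32 with library size alone, where 4 rose and 4 fell). HXT1, the low-affinity transporter, had 1045 and 917 CPM at 30 min, against 4416, 5085 and 4618 CPM at 10 min (-2.26 ± 0.34, adjusted p = 6.58e-05), and HXT2, a high-affinity one, had 15.4 and 7.57 CPM at 30 min, against 104, 118 and 194 CPM at 10 min (-3.60 ± 0.50, adjusted p = 3.35e-05). HXT3 (-1.72) and HXT4 (-2.63) fell too, and reads of these related genes may be shared.

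In the tricarboxylic acid, glyoxylate and gluconeogenesis list 9 rose and 3 fell of 23 tested (median 0.34), against 19.8% and 22.1% over all genes. With library size alone 16 rose and 1 fell, and 3 rose with a filter at a mean of 10 CPM. MLS1, malate synthase of the glyoxylate cycle, had 10.7 and 8.57 CPM at 30 min, against 2.85, 2.76 and 2.27 CPM at 10 min (1.87 ± 0.28, adjusted p = 6.15e-05), and CIT3 (1.63) and FBP1 (1.67) rose from levels below 3 CPM. Fatty acid oxidation and peroxisome genes rose in 13 of 27 cases and fell in 1 (median 0.62, and 22 rose and 0 fell with library size alone). POT1, the last enzyme of peroxisomal beta-oxidation, had 16.9 and 17.5 CPM at 30 min, against 1.30, 1.04 and 0.921 CPM at 10 min (3.98 ± 0.48, adjusted p = 7.28e-06), and CRC1, the mitochondrial carnitine carrier, had 9.57 and 6.57 CPM at 30 min, against 0.908, 1.04 and 1.17 CPM at 10 min (2.95 ± 0.35, adjusted p = 5.81e-06). POX1, the first enzyme of the pathway, rose at a very low level (1.36 and 1.24 CPM at 30 min, against 0.389, 0.403 and 0.307 CPM at 10 min), as did SPS19 (1.49; adjusted p = 0.0511 without AID 30 replicate 1).

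The counts for mitochondrial complexes depended on the scaling. For nuclear genes of oxidative phosphorylation 3 rose and 5 fell of 39 tested, with a median of -0.18 (0.42 with library size alone, where 11 rose and 0 fell), and 2 fell without AID 30 replicate 1 or without AID 10 replicate 3. For mitochondrial ribosomal proteins 14 rose and 2 fell of 72 tested, with a median of 0.13, and over all genes 19.8% rose and 22.1% fell. Scaling by library size alone gave 52 that rose and none that fell, while leaving out 1 library gave 2 that rose (without AID 30 replicate 1) to 22 (without AID 10 replicate 1), with 5 and 7 without AID 10 replicates 2 and 3. NDE2, an external NADH dehydrogenase, had 16.4 and 18.1 CPM at 30 min, against 2.85, 2.65 and 3.07 CPM at 10 min (2.59 ± 0.26, adjusted p = 1.24e-06), and SDH4, of succinate dehydrogenase, had 208 and 125 CPM at 30 min, against 86.5, 69.1 and 80.3 CPM at 10 min (1.08 ± 0.25, adjusted p = 0.00233; adjusted p = 0.078 without AID 30 replicate 1). MRPL10 had 126 and 118 CPM at 30 min, against 76.3, 52.1 and 55.6 CPM at 10 min (1.00 ± 0.17, adjusted p = 0.000202). MRPL19 (0.93), MRPL33 (0.74) and MRPL37 (0.73) rose, but each missed the threshold without AID 30 replicate 1 (adjusted p = 0.123, 0.0882 and 0.32). MRPL19 and MRPL37 also did so without AID 10 replicate 2 (0.0655 and 0.141) or replicate 3 (0.0524 and 0.12), and MRPL19 overlaps an annotated reading frame. COX8, of cytochrome oxidase, fell (-1.01 ± 0.25, adjusted p = 0.0047; 0.297 with library size alone), and TIM11, of the ATP synthase, rose (0.85 ± 0.23, adjusted p = 0.00658; 0.0597 without AID 30 replicate 1).

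Called chaperone genes mostly fell, but not with library size alone, while called genes of protein turnover mostly rose. Of Hsf1-dependent chaperone genes 1 rose and 13 fell of 27 tested, against 19.8% and 22.1% over all genes. Their median was -0.58 (0.02 with library size alone, where 4 rose and 2 fell). Leaving out either 30 min library left 8 that fell. HSC82, the constitutive Hsp90, had 2064 and 1449.7 CPM at 30 min, against 3116, 4252 and 3902 CPM at 10 min (-1.10 ± 0.22, adjusted p = 0.000945), SSE1, an Hsp110 nucleotide exchange factor of Hsp70, had 577 and 542 CPM at 30 min, against 1156, 1363 and 1262 CPM at 10 min (-1.17 ± 0.18, adjusted p = 6.66e-05; 0.0692 with library size alone), and HSP78, the mitochondrial disaggregase, had 307 and 319 CPM at 30 min, against 605, 746 and 695 CPM at 10 min (-1.12 ± 0.26, adjusted p = 0.00284; 0.256 with library size alone). In each the 30 min libraries were below all 10 min libraries. Proteasome genes rose in 12 of 34 cases, and the 1 that fell was RPN4, for the transcription factor that drives the others (91.5 and 107 CPM at 30 min, against 159, 221 and 202 CPM at 10 min; -0.96 ± 0.24, adjusted p = 0.00487; 0.444 with library size alone and 0.0552 without AID 30 replicate 1). RPN10, a ubiquitin receptor, had 362 and 354 CPM at 30 min, against 236, 206 and 213 CPM at 10 min (0.71 ± 0.17, adjusted p = 0.00374), and PUP3, a core subunit, had 404 and 411 CPM at 30 min, against 305, 228 and 233 CPM at 10 min (0.68 ± 0.17, adjusted p = 0.0047). The number of proteasome genes that rose was 29 with library size alone, 6 without AID 30 replicate 1 and 7 without AID 10 replicate 2. Changes were small, with a list median of 0.31, and PRE8 (0.69 ± 0.24, adjusted p = 0.0304) missed the threshold without AID 30 replicate 1 (0.246), without AID 10 replicate 2 (0.108) and without AID 10 replicate 3 (0.0874).

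Of 36 autophagy and vacuolar protease genes 16 rose and 2 fell, against 19.8% and 22.1% over all genes. Their median was 0.51, and 25 rose and 0 fell with library size alone. ATG8, the ubiquitin-like protein that coats autophagosomes, had 44.9 and 66.6 CPM at 30 min, against 17.8, 15.9 and 13.9 CPM at 10 min (1.81 ± 0.29, adjusted p = 0.000142), and ATG7, the enzyme that activates it, had 53.4 and 40.5 CPM at 30 min, against 10.7, 14.3 and 12.6 CPM at 10 min (1.90 ± 0.16, adjusted p = 1.69e-07). ATG33, for mitophagy (1.75), and ATG2, for membrane growth (1.61), rose too. For all 4 both 30 min libraries were above the 10 min ones. Peroxide and superoxide defence genes rose in 8 of 26 cases and none fell (median 0.27, and 19 rose with library size alone). TSA2, a peroxiredoxin isoform, had 99.1 and 86.7 CPM at 30 min, against 21.1, 17.3 and 21.1 CPM at 10 min (2.23 ± 0.19, adjusted p = 2.76e-07), GTT1, a glutathione transferase, had 167 and 102 CPM at 30 min, against 37.4, 39.4 and 42.4 CPM at 10 min (1.75 ± 0.28, adjusted p = 9.95e-05), and GPX1, a glutathione peroxidase, had 44.5 and 28.7 CPM at 30 min, against 9.15, 13.1 and 17.004 CPM at 10 min (1.48 ± 0.27, adjusted p = 0.000394). TRX3, the mitochondrial thioredoxin, changed by 1.29 ± 0.27.

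Cell cycle genes fell in 25 of 37 cases and none rose (median -0.87), against 22.1% and 19.8% over all genes. Of these genes 6 fell and 2 rose with library size alone, and 16 fell without AID 30 replicate 1. CLN3, the G1 cyclin that starts the cycle, had 25.5 and 36.7 CPM at 30 min, against 79.4, 107 and 108 CPM at 10 min (-1.65 ± 0.28, adjusted p = 0.000215), CDC6, which loads the replicative helicase, had 4.38 and 5.84 CPM at 30 min, against 23.5, 26.9 and 26.3 CPM at 10 min (-2.32 ± 0.23, adjusted p = 9.52e-07), and CLB6, an S phase cyclin, had 0.352 and 0.519 CPM at 30 min, against 1.95, 1.38 and 2.03 CPM at 10 min (-1.99 ± 0.32, adjusted p = 0.000134) at a level below 3 CPM. HST3, a histone deacetylase expressed late in the cycle, changed by -1.74 ± 0.22. None of them had overlapping groups.

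All 8 core histone genes fell, against 22.1% of all tested genes, with a median of -1.84 (-1.23 with library size alone, all 8 called). HTA1, for H2A, stood at 431, 602 and 552 CPM at 0 min, 1266, 974 and 1126 CPM at 10 min and 203 and 125 CPM at 30 min (-2.77 ± 0.37, adjusted p = 2.17e-05), and HTB1, its divergent partner for H2B across 817 bases, had 246 and 176 CPM at 30 min, against 1213, 904 and 1044 CPM at 10 min (-2.32 ± 0.29, adjusted p = 9.35e-06). HHT1, for H3, had 212 and 191 CPM at 30 min, against 1113, 902 and 900.3 CPM at 10 min (-2.27 ± 0.22, adjusted p = 7.61e-07), and HHF1, for H4, had 223 and 208 CPM at 30 min, against 1025, 798 and 816 CPM at 10 min (-2.03 ± 0.20, adjusted p = 1.24e-06). HTA1 was lower at 30 min than before salt in every library, and all 4 were lower at 30 than at 10 min. Histone transcripts took 0.270 and 0.278% of the counts at 30 min, against 0.694, 0.586 and 0.596% at 10 min. In a bulk sample fewer cells in S phase and less histone RNA per such cell cannot be told apart.

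Of the mating pheromone pathway 2 rose and 7 fell of 27 tested, against 19.8% and 22.1% over all genes, with a median of -0.23 (0.39 with library size alone, where 6 rose and 3 fell). BAR1, the alpha factor protease of a cells, had 31.1 and 28.6 CPM at 30 min, against 134, 169 and 149.5 CPM at 10 min (-2.34 ± 0.24, adjusted p = 1.33e-06), and ASG7 (-2.72 ± 0.30) and the a-factor gene MFA2 (-1.61 ± 0.25) fell too. PRM5, a pheromone- and wall-stress-induced membrane protein, rose (135 and 101 CPM at 30 min, against 52.0, 47.5 and 55.2 CPM at 10 min; 1.20 ± 0.17, adjusted p = 2.98e-05). Of 8 meiosis markers 2 rose and 2 fell: IME2 (-1.87) and SPS4 (-1.77) fell, and HOP1 (1.05) and SPO13 (0.89) rose. HOP1 missed the threshold without AID 30 replicate 2 (adjusted p = 0.064), and SPO13 without AID 30 replicate 1 (0.354), AID 10 replicate 1 (0.106) or AID 10 replicate 2 (0.114), and with the compared groups alone (0.0726).

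Of 47 genes of mRNA decay, the process Xrn1 serves, 4 rose and 5 fell, against 19.8% and 22.1% over all genes. Their median was -0.09 (0.54 with library size alone, where 19 rose and 1 fell), and 8 fell with the compared groups alone. TIS11 and DCS2, described above, rose most. RRP6, a nuclear exosome nuclease, had 40.1 and 43.6 CPM at 30 min, against 99.4, 113 and 114 CPM at 10 min (-1.38 ± 0.17, adjusted p = 7.63e-06), and PUB1, a poly(A)- and U-rich RNA-binding protein, had 87.9 and 149.95 CPM at 30 min, against 313, 301 and 307 CPM at 10 min (-1.37 ± 0.33, adjusted p = 0.00319; 0.159 with library size alone and 0.0596 without AID 30 replicate 1). Both were lower in each 30 min library.

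**Figure D4:**
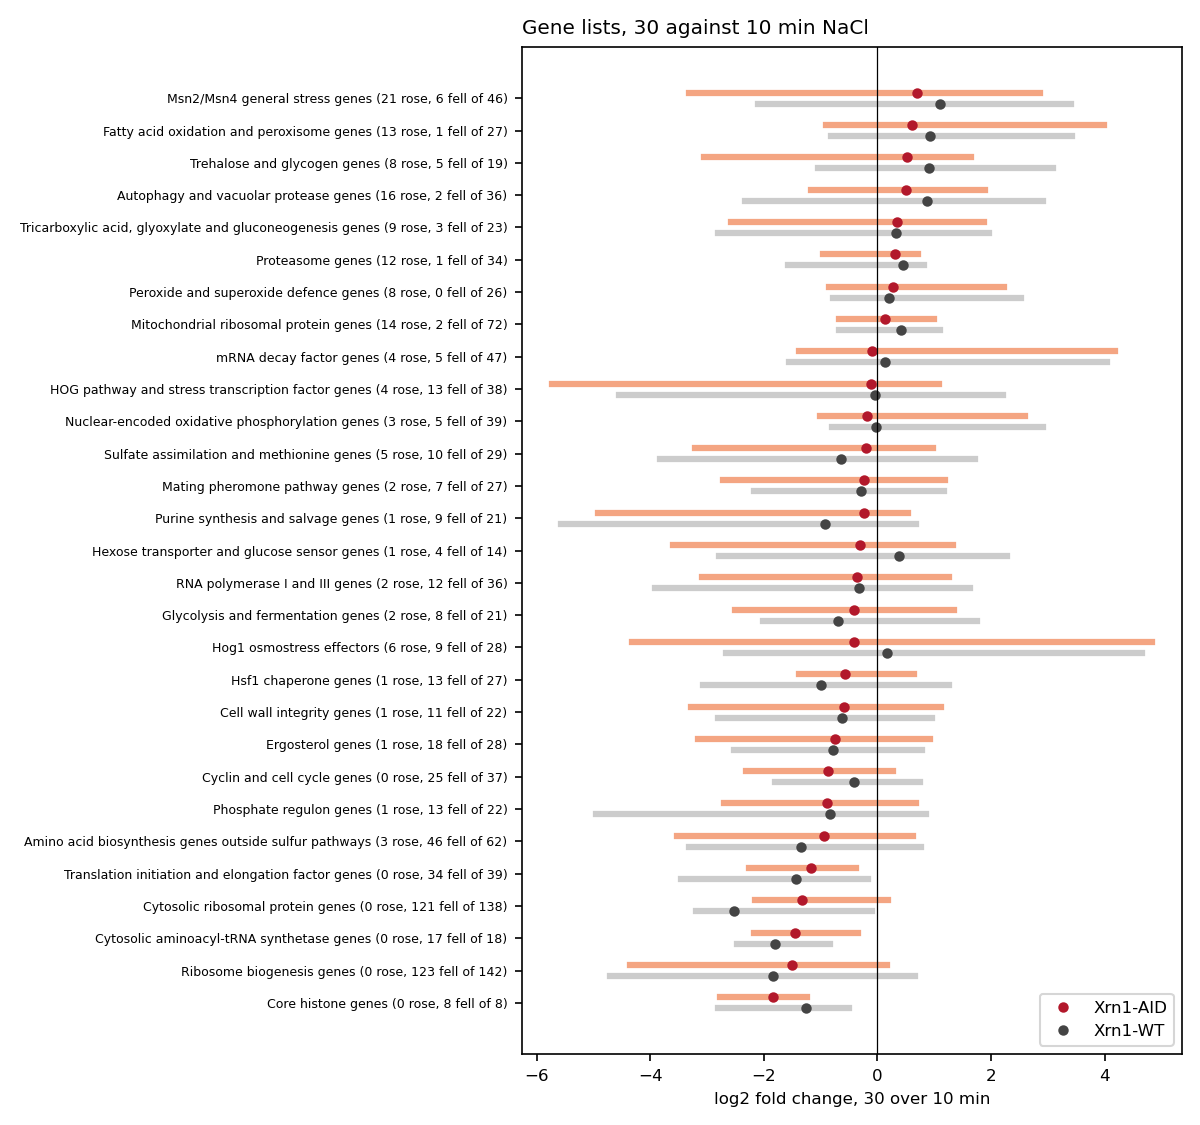
Log2 fold change, 30 over 10 min, by gene list: points are medians over the tested members and bars run from the lowest to the highest member, with Xrn1-AID (red) above Xrn1-WT (grey) in each row; the counts in the row names are for Xrn1-AID. The lists run from core histones (median -1.84 in Xrn1-AID) to general stress genes (0.69).

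The same step in Xrn1-WT was then tested against that in Xrn1-AID. Every Xrn1-AID library saw auxin and no Xrn1-WT library did. Effects of auxin itself and of Xrn1 loss thus cannot be told apart in this comparison. From 10 to 30 min 2592 genes were called in Xrn1-AID and 3488 (56.3%) in Xrn1-WT, of which 1895 rose and 1593 fell. In Xrn1-WT 3740 genes rose and 685 fell with library size alone. The change itself differed between the arms in 85 genes (1.37%): it was higher in Xrn1-AID in 40 (0.646%) and lower in 45 (0.726%). This balance turned in most alternatives. Among these were the Wald test of DESeq2 (285 higher, 192 lower), its size factors (48 and 33) and library size alone (39 and 20). More were lower only with no filter on low counts (31 and 37), without AID 10 replicate 1 (33 and 42) and without WT 10 replicate 3 (85 and 152). At an unadjusted p under 0.05 there were 1251 such genes. The count depended on method and libraries: it was 477 with the Wald test of DESeq2, 43 when only the compared groups were fitted, 8 against a 1.5-fold threshold, and 7 to 38 when a single library was left out, except 75 without AID 10 replicate 1 and 237 without WT 10 replicate 3. A gene that missed the threshold is not shown to change alike in the arms.

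**Figure D5:**
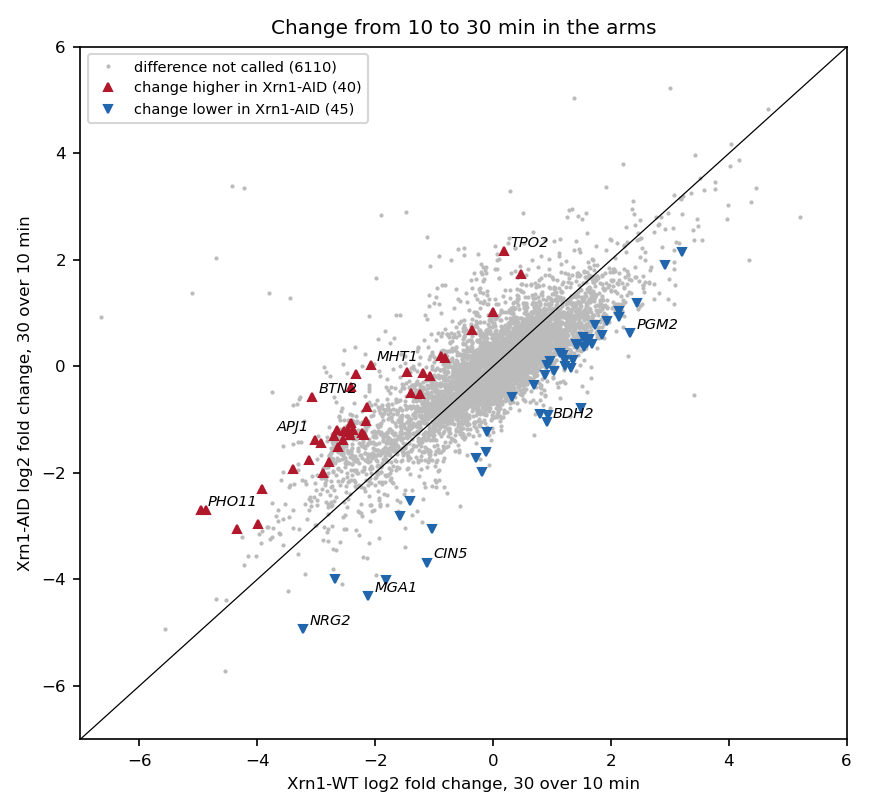
Log2 fold change, 30 over 10 min, in Xrn1-AID (vertical) against Xrn1-WT (horizontal), 1 point per tested gene, with the line of equal change. Red triangles mark the 40 genes whose change was higher in Xrn1-AID and blue triangles the 45 where it was lower. PHO11 lies at -2.70 in Xrn1-AID and -4.95 in Xrn1-WT, and CIN5 at -3.69 and -1.12.

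Genes that fell further in Xrn1-AID included NRG1, NRG2 and CIN5. CIN5 changed by -3.69 ± 0.41 in Xrn1-AID and -1.12 ± 0.31 in Xrn1-WT, a difference of -2.57 ± 0.48, adjusted p = 0.0221. In Xrn1-WT it had 129, 87.4 and 73.0 CPM at 30 min, against 162, 160.00 and 308 CPM at 10 min. NRG2 changed by -4.93 ± 0.23 in Xrn1-AID and -3.22 ± 0.18 in Xrn1-WT (-1.71 ± 0.26, adjusted p = 0.00508 for the difference), a call kept in all 20 alternatives. NRG1 (-1.33 ± 0.25, adjusted p = 0.0221), MGA1 (-2.20 ± 0.50, adjusted p = 0.0433) and RSB1 (-2.19 ± 0.46, adjusted p = 0.0326) differed in the same direction. The Xrn1-AID libraries of CIN5 were thus below those of Xrn1-WT at 30 min and above them at 10 min. CIN5, NRG1 and RSB1 were each called in 11 of 20 alternatives and MGA1 in 5.

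Glycogen genes were a further group with lower changes in Xrn1-AID. Of 19 trehalose and glycogen genes 4 differed downward and none upward, against 0.726% and 0.646% of all genes. The median difference was -0.90, against -0.09 over all genes. PGM2, phosphoglucomutase, changed by 0.62 ± 0.29 in Xrn1-AID, where it was not called (it was with the compared groups alone, adjusted p = 0.00814, and with library size alone, 0.00458), and by 2.33 ± 0.27 in Xrn1-WT (-1.71 ± 0.40, adjusted p = 0.0455 for the difference). PIG2 (-2.01 ± 0.40, adjusted p = 0.0293), GLC3 (-1.49 ± 0.34, adjusted p = 0.0433) and GSY1 (-1.43 ± 0.30, adjusted p = 0.0326) were the other 3. PGM2, GLC3 and GSY1 were each called in 5 of 20 alternatives and PIG2 in 9. For 2 genes the arms moved in opposite directions: BDH2, a putative butanediol dehydrogenase, changed by -1.05 ± 0.26 in Xrn1-AID and 0.91 ± 0.22 in Xrn1-WT (-1.96 ± 0.34, adjusted p = 0.0174), and ISF1, linked to respiration, by -0.91 ± 0.31 and 0.94 ± 0.28 (-1.85 ± 0.42, adjusted p = 0.0433). The Xrn1-AID call of BDH2 was lost with library size alone (adjusted p = 0.181), and that of ISF1 there (0.543), without either 30 min library (0.164 and 0.0646), and without AID 10 replicate 2 (0.0572) or replicate 3 (0.0765).

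Of the 8 genes named for the largest differences in the other direction, 7 fell further in Xrn1-WT and TPO2 did not. The acid phosphatase gene PHO11 changed by -2.70 ± 0.16 in Xrn1-AID and -4.95 ± 0.15 in Xrn1-WT (2.26 ± 0.20, adjusted p = 2.76e-05 for the difference). In Xrn1-AID it had 36.9 and 35.1 CPM at 30 min, against 227, 247 and 225 CPM at 10 min. In Xrn1-WT it had 16.0, 17.6 and 15.1 CPM at 30 min, against 509.8, 541 and 459 CPM at 10 min. PHO12 (2.17 ± 0.24, adjusted p = 0.000294), its near-identical copy, gave the same picture, and both were called in all 20 alternatives. PHO5 differed by 1.61 ± 0.28, adjusted p = 0.0177. The Xrn1-WT libraries were above those of Xrn1-AID at 10 min and below them at 30 min for PHO11.

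BTN2, for a protein that sorts misfolded proteins, was not called in Xrn1-AID (-0.58 ± 0.31; adjusted p = 0.0402 with the compared groups alone) and fell in Xrn1-WT (-3.07 ± 0.30; 2.49 ± 0.41, adjusted p = 0.0118 for the difference). In Xrn1-AID it had 116 and 94.4 CPM at 30 min, against 149.5, 183 and 139 CPM at 10 min. In Xrn1-WT it had 123, 91.0 and 55.1 CPM at 30 min, against 615, 539 and 1107 CPM at 10 min. The Xrn1-WT libraries at 10 min were thus higher than any Xrn1-AID library. APJ1, a co-chaperone of the same quality control, changed by -1.38 ± 0.19 and -3.02 ± 0.17 (1.64 ± 0.24, adjusted p = 0.00508). MHT1, homocysteine methyltransferase, was not called in Xrn1-AID (0.03 ± 0.20; adjusted p = 0.0367 with library size alone) and changed by -2.08 ± 0.19 in Xrn1-WT (2.11 ± 0.27, adjusted p = 0.00171, called in all 20 alternatives). ATG41, an autophagy gene, was not called in Xrn1-AID either and changed by -0.15 ± 0.29 and -2.33 ± 0.27 (2.18 ± 0.39, adjusted p = 0.0177). TPO2, a polyamine exporter, rose in Xrn1-AID (2.17 ± 0.23) and was not called in Xrn1-WT (0.19 ± 0.21; 1.98 ± 0.31, adjusted p = 0.00669 for the difference).

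Ribosomal protein genes had a smaller median change in Xrn1-AID. It was -1.34 in Xrn1-AID and -2.52 in Xrn1-WT, and 9 of 138 genes differed upward, none downward, against 0.646% and 0.726% of all genes. That count was 72 with DESeq2 and 28 with library size alone. Leaving out 1 library gave none, except 5 without AID 10 replicate 1 and 25 without WT 10 replicate 3. Their share of the counts at 30 min was 12.5 and 10.7% in Xrn1-AID and 8.74, 7.58 and 9.10% in Xrn1-WT, and at 10 min 20.6, 20.1 and 20.3% in Xrn1-AID and 23.9, 30.5 and 22.6% in Xrn1-WT. The Xrn1-AID libraries were thus above those of Xrn1-WT at 30 min and below them at 10 min. Of the ribosome biogenesis genes 5 of 142 differed upward and none downward, with medians of -1.498 in Xrn1-AID and -1.84 in Xrn1-WT. In the sulfur, phosphate and chaperone lists 5 of 29, 5 of 22 and 3 of 27 differed upward, and none downward. The Hog1 effectors gave 3 of 28 and the pathway and transcription factor genes 4 of 38 with lower changes in Xrn1-AID, and none with higher. CIN5 is in both lists, so these counts are not separate.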

How the data were processed

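The authors sequenced poly(A)-selected RNA and deposited 1 table of raw counts per gene for all libraries. Per the submitters' processing notes, TopHat2 2.1.0, featureCounts 1.5.1 and DESeq2 1.22.2 were used with the sacCer3 genome. The strand setting and the treatment of multiply aligned reads are not given in the sources used here. From these deposited counts, edgeR 4.0.16 (TMM scaling, low-count filter by group, robust quasi-likelihood F-test) in R 4.3.3 was fitted to all 17 libraries with 1 mean for each of the 6 groups, so that all groups share 1 estimate of spread. Contrasts were 30 minus 10 min in Xrn1-AID, the same in Xrn1-WT, and their difference, with Benjamini-Hochberg adjustment over the 6195 genes tested and calls at an adjusted p under 0.05. Intervals on promoter shares are 95% Wilson intervals. RefSeq names or positions matched 6048 of 7126 features.

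Groups came from the sample labels. By title the second Xrn1-AID library at 30 min is replicate 2, while its column begins with 3. Named genes were XRN1 and a panel (STL1, GPD1, GPP1, GPP2, ENA1, CTT1, HSP12, HSP26, TKL2, AAH1, RPL3, NOP1, RPA190), the 12 largest called changes per direction with a mean of at least 10 CPM over the 5 libraries and no overlap, the 4 largest called changes per list, and the 8 largest called differences per direction with a mean of at least 10 CPM; a few genes under this rule are not reported here. Members and lists were chosen with earlier results of these data known. Alternatives were DESeq2 1.42.0 (Wald test and size factors), library size alone, other filters, replicate blocks, the compared groups alone, a threshold of 1.5-fold, and leaving out each library. The procedure was tested on simulated counts in which few genes changed, up or down at random. Scaling under changes as wide as those found here was thus not tested.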

Additional observations from a re-analysis of the deposited data

Results flagged for a closer look

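The named genes whose change from 10 to 30 min differed between Xrn1-AID and Xrn1-WT (edgeR's quasi-likelihood test, Benjamini-Hochberg adjusted p under 0.05) are listed here by the difference in log2 fold change. Lower in Xrn1-AID were CIN5 (-2.57), MGA1 (-2.20), RSB1 (-2.19), PIG2 (-2.01), BDH2 (-1.96), ISF1 (-1.85), CLB6 (-1.80), NRG2 (-1.71), PGM2 (-1.71), GLC3 (-1.49), GSY1 (-1.43), NRG1 (-1.33) and ATG7 (-1.02). Higher in Xrn1-AID were BTN2 (2.49), PHO11 (2.26), ATG41 (2.18), PHO12 (2.17), MHT1 (2.11), TPO2 (1.98), APJ1 (1.64), PHO5 (1.61) and MET6 (1.47). NRG2, PHO11, PHO12 and MHT1 were called in all 20 alternatives, and ATG7, CLB6, GLC3, GSY1, ISF1, MGA1 and PGM2 in 4 or 5 of 19 or 20.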

How the results depend on the processing

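The count of genes called in Xrn1-AID was 2592, and 1203 against a 1.5-fold threshold. Leaving out 1 library gave 1974 to 2466. In Xrn1-WT it was 3488, and 1926 against that threshold. The difference between the arms was called in 85 genes. It was called in 477 with the DESeq2 Wald test (247 genes without an adjusted p are not counted), 43 with the compared groups alone and 8 against 1.5-fold. Leaving out 1 library gave 7 to 237, 7 without AID 30 replicate 1 and 237 without WT 10 replicate 3. The cause was not tested.

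Same-numbered 30 and 10 min libraries of Xrn1-AID did not deviate together (r = -0.11 and -0.0071 by title, -0.11 and -0.17 by column), so the numbers were not taken as pairs. A replicate block by title left 2354 genes called in Xrn1-AID and 12 for the difference. A block by column number left 2295 and 13. Both blocks ended the Xrn1-AID calls of PRE8 (adjusted p = 0.0541 by title and 0.0522 by column) and MRPL37 (0.0523 and 0.0644), and the column block that of SPO13 (0.0624), with no other named gene's Xrn1-AID call changed.

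Changes of uncalled genes that turned sign were those of GPP2 (0.20), BTN2 (0.017) and ATG41 (0.44) with library size alone. XRN1 turned with the title block (-0.067). Leaving out 1 library, XRN1 ranged between -0.58 (without AID 30 replicate 2) and 0.46, ATG41 between -0.54 and 0.17 (without AID 30 replicate 2), and MHT1 between -0.032 (without AID 10 replicate 3) and 0.12, and it also turned without AID 30 replicate 1. Of the named genes' values in Xrn1-AID under the alternatives, 2038 kept direction and call, 56 lost the call, 10 gained it and 8 turned. With library size alone 14 of 32 list medians changed sign. The 30 min group rests on 2 libraries, and genes near the limit of 3 counts carry large errors.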

Other observations

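Genes of the iron regulon were gathered after their values were seen, so their counts are a description. In Xrn1-AID 16 rose and 5 fell of 30 tested, against 19.8% and 22.1% over all genes. Their median was 0.51, and 21 rose and 3 fell with library size alone. Genes of iron uptake were among those that rose: SIT1, a siderophore importer, had 152 and 155 CPM at 30 min, against 12.5, 16.2 and 21.0 CPM at 10 min, FET3, the multicopper oxidase of iron uptake, had 754 and 751 CPM at 30 min, against 287, 289 and 380.2 CPM at 10 min, and its partner permease FTR1 had 411 and 291 CPM at 30 min, against 148, 130.00 and 159.6 CPM at 10 min. FET3 changed by 1.24 ± 0.17, adjusted p = 3e-05 and FTR1 by 1.27 ± 0.24, adjusted p = 0.000535. The low-affinity transporter FET4 (9.16 and 10.8 CPM at 30 min, against 64.0, 62.6 and 56.7 CPM at 10 min) and the reductase FRE1 (15.9 and 14.6 CPM at 30 min, against 32.6, 38.3 and 42.6 CPM at 10 min) fell. So did FRE4 (-4.22), FIT1 (-1.78) and ENB1 (-0.48), and FIT1 thus went against FIT2 (3.37) and FIT3 (1.16), which rose. None of these genes had overlapping groups. HMX1, heme oxygenase, was not called in Xrn1-AID (0.03 ± 0.15) and rose in Xrn1-WT (0.92 ± 0.13; -0.89 ± 0.20, adjusted p = 0.0433 for the difference).

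Among genes of phospholipid synthesis, also gathered afterwards, 8 rose and 4 fell of 23 tested, with a median of 0.0027, against 19.8% and 22.1% over all genes, and 11 rose and 2 fell with library size alone. Genes of the methylation route to phosphatidylcholine rose: CHO1 had 455 and 301 CPM at 30 min, against 183, 159 and 169.6 CPM at 10 min (1.15 ± 0.25, adjusted p = 0.00184), PSD1 had 178 and 144 CPM at 30 min, against 97.5, 84.6 and 88.1 CPM at 10 min (0.84 ± 0.16, adjusted p = 0.000491), CHO2 had 177 and 112 CPM at 30 min, against 72.1, 103 and 96.7 CPM at 10 min (0.67 ± 0.22, adjusted p = 0.0225), and OPI3 is given above. Of the genes for the routes from free choline and ethanolamine CKI1 rose (1.04), while PCT1 (-0.23), CPT1 (-0.03), EKI1 (-0.21), ECT1 (0.0027) and EPT1 (-0.29) were not called. ITR1, the inositol importer, had 327 and 369 CPM at 30 min, against 125, 142 and 141 CPM at 10 min (1.35 ± 0.13, adjusted p = 1.05e-06), while INO1, which makes inositol, had 27.6 and 33.0 CPM at 30 min, against 37.7, 28.7 and 38.3 CPM at 10 min and did not pass (-0.20 ± 0.21, adjusted p = 0.46). The fatty acid synthase genes FAS1 (337 and 299 CPM at 30 min, against 815, 1063 and 1081 CPM at 10 min) and FAS2 (712 and 656 CPM at 30 min, against 1177, 1104 and 1158 CPM at 10 min) fell, as did URA7 for CTP synthase (18.6 and 16.2 CPM at 30 min, against 166, 151 and 148 CPM at 10 min).

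Of 63 small nucleolar and spliceosomal RNAs that could be tested, 6 rose and 1 fell, against 19.8% and 22.1% over all genes. Their median was 0.60 and became -0.72 without AID 30 replicate 1, which leaves 1 library at 30 min. Scaling by library size alone gave 14 that rose and none that fell. The 1 that fell, snR62, had only 0.403 and 0.173 CPM at 30 min, against 1.17, 0.978 and 0.921 CPM at 10 min. In Xrn1-WT 0 rose and 11 fell, against 30.6% and 25.7% over all genes. The difference between the arms was called in 0 of the 63, so they are not shown to change differently. Such RNA took 0.0282, 0.0179 and 0.107% of the counts of the Xrn1-WT libraries at 30 min, a wide spread.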
